A study of Mus musculus with 26 samples.

Results

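The untreated livers of a mouse study of fatty liver disease are described here gene by gene: what the steatotic liver transcriptome was made of, and which genes differed between animals that had been treated alike. All 9 libraries labelled as untreated were taken, out of 26 samples in the series. They came from liver tissue of male C57BL/6 mice that were switched to an HFD (high-fat diet) when they were 4 weeks old and stayed on it for 18 weeks. The labels call the animals MASLD mice (metabolic dysfunction-associated steatotic liver disease) and list no injection for them, and the series text adds high cholesterol to the diet. The other 17 samples are livers of mice on the same diet that received tail-vein injections every 72 hours for 8 weeks, 8 of them with exosomes from UCMSCs (UCMSC-Exos) and 9 with the agent named LSCR, and none of these enters any value below. No group on a lean diet is among the 26 samples, so the values describe the steatotic liver and do not say what the diet changed. The libraries are called 1 to 9 after the replicate numbers in the labels, which speak of 9 mice, and no label gives the order of the numbers a meaning.

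Hepatocytes make up most of the liver's mass and secrete most plasma proteins, so their transcripts fill a large part of any liver library. In steatosis hepatocytes store triglyceride in lipid droplets, and part of that fat is made in the liver itself by de novo lipogenesis, in which fatty acid synthase builds palmitate and stearoyl-CoA desaturase turns saturated into monounsaturated fatty acids. The other cells of the organ include Kupffer cells (the resident macrophages), bile duct cells (cholangiocytes), stellate cells, which store retinoids and lay down collagen, and sinusoidal endothelial cells.

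Each library held 32944988 to 35914084 counted reads, and 15989 to 17282 genes had at least 10 reads. Protein-coding genes took 98.5 to 98.7% of the counts. Libraries 3 and 9 stood apart from the other 7. Library 3 contained transcripts of pancreatic acinar cells and library 9 transcripts of skeletal muscle, as described below, and values are therefore given with and without these libraries. In bulk tissue, fewer cells of a type and less RNA per cell cannot be told apart, and this holds for every cell type named below. Levels are given as CPM (read counts relative to the size of the library, with sizes scaled by TMM), which can be compared between libraries, and as TPM (a level in which counts are first divided by exon length and then scaled to the same total in each library), which takes out the effect of gene length. Ranks by CPM and shares of counts still hold that effect.

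Genes for secreted plasma proteins and apolipoproteins headed the transcriptome. Alb (chromosome 5, 90460897 to 90476602 on mm10), which encodes albumin, had the highest CPM and TPM. Its level in libraries 1 to 9 was 35998, 27998, 46613, 30324, 37539, 30338, 30931, 32652 and 24831 CPM, with a mean of 33025 ± 6377 (SD, n = 9) and of 39494 ± 6443 TPM. Library 3 was highest and library 9 lowest, and the other 7 ranged from 27998 to 37539 CPM. Transferrin (Trf), the iron carrier of plasma, had 21901 ± 7363 CPM, and apolipoprotein E (Apoe), a ligand for lipoprotein uptake, 21454 ± 6173 CPM (SD, n = 9). For both genes library 3 was again highest, at 39002 and 36333 CPM, and library 9 lowest, at 14541 and 14184 CPM. The 250 bases before the RefSeq start of Alb, which lies a little upstream of the start given above, are shown because this gene had the highest CPM in 8 of 9 libraries, all but library 9, where mt-Co1 was above it.
Alb promoter (RefSeq, GRCm38.p6, chr5:90460620-90460869, plus strand): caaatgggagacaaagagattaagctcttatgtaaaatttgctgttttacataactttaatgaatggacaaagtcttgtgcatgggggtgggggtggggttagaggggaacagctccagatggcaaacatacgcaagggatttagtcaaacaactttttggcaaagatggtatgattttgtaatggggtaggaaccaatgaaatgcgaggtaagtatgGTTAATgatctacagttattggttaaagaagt
Capitals mark GTTAAT, letters found in binding motifs of hepatocyte factors, which begin at position -32 relative to the RefSeq start. These letters occurred on either strand in 7.1% of the 32851 promoter windows of 300 bases (250 before to 50 after a start) in the table, and in 2 of the 12 windows found for the 20 genes of highest CPM, those of Alb and Gc. TATAAA was present in 3 of these 12 windows, against 13.6% of all windows. A match is a description of the letters only.

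The fourth gene by CPM was Scd1 (chromosome 19, 44394455 to 44407879), the hepatic stearoyl-CoA desaturase. In libraries 1 to 9 it stood at 17199.6, 11961, 7491, 10400.3, 12306, 18440.1, 21108, 22429 and 14435 CPM, a mean of 15086 ± 5043 CPM (SD, n = 9). Library 3 was lowest, libraries 7 and 8 were highest, and the range among the 7 other libraries was 10400.3 to 22429 CPM. Next came mt-Co1, a subunit of cytochrome c oxidase encoded by the mitochondrial genome, the complement component C3 at 10310.1 ± 2186 CPM, and the scavengers of free haem and haemoglobin, haemopexin (Hpx, 7056 ± 1944 CPM) and haptoglobin (Hp, 7052 ± 2614 CPM). The rest of the 20 genes of highest CPM included Apob, the vitamin D-binding protein Gc, the glutathione transferase Gstm1, the translation factor Eef1a1, Apoa1, the selenium carrier Selenop, the sterol carrier Scp2, the cytochrome P450 Cyp2e1 and 3 further mitochondrial genes (mt-Cytb, mt-Nd2 and mt-Nd1). Their means ran from 3510.1 CPM for mt-Nd1 to 5381 CPM for mt-Cytb.

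Scaling by exon length changed the order. Apob, whose protein is the structural core of very-low-density lipoprotein, was gene 10 by CPM at 5372 ± 785 CPM and gene 103 by TPM at 1084 ± 152 TPM (SD, n = 9), with an exon length of 13934 bases. Apoa2, a small protein of high-density lipoprotein with an exon length of 537 bases, was gene 25 by CPM and gene 5 by TPM, at 15051 ± 3272 TPM. Scd1 moved from place 4 to place 13, at 8744 ± 3104 TPM. The 10 genes of highest TPM were Alb, Apoe, mt-Co1, Trf, Apoa2, mt-Cytb, Hpx, Hp, mt-Nd2 and mt-Nd1, so 6 of the 10 encode plasma proteins and 4 are mitochondrial.

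**Figure D1:**
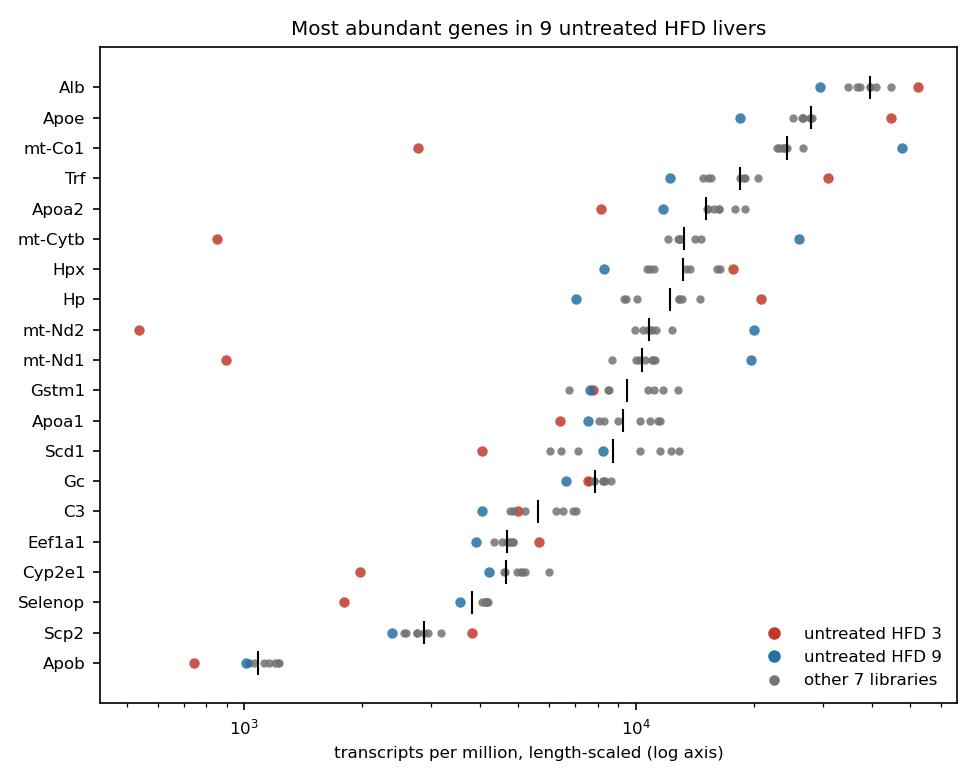
Length-scaled level (TPM, log axis) of 20 genes that are among the 20 highest by CPM or the 10 highest by TPM; each point is 1 library and each vertical bar the mean of 9. The 4 mitochondrial genes are lowest in library 3 (red) and highest in library 9 (blue), while Alb, Apoe and Trf are highest in library 3 and lowest in library 9.

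The count pool was concentrated in few genes. In 1 library the 10 most abundant genes took 13.0 to 16.6% of the counts and the 100 most abundant 30.6 to 35.1%, and between 347 and 529 genes were enough to reach 50% of all counts. Mean CPM was at least 10 in 9375 genes, at least 100 in 1712 and at least 1000 in 111. By family, apolipoproteins took 3.86% ± 0.485 of the counts (SD, n = 9), of which Apoe was the largest member. Mitochondrially encoded proteins took 3.29% ± 1.57, solute carriers 1.91% ± 0.0955, complement proteins 1.90% ± 0.259 and cytochromes P450 1.44% ± 0.199. Cytosolic ribosomal proteins followed at 1.38% ± 0.0825, a narrow range of 1.27 to 1.51% over the 9 libraries. Glutathione transferases held 1.26% ± 0.202, fibrinogen and coagulation factors 1.24% ± 0.17, and serpins, a family of mostly protease inhibitors, 1.18% ± 0.172. Collagens took 0.286% ± 0.0691, haemoglobins 0.00762% ± 0.00452 and immunoglobulins 0.00436% ± 0.000973. By TPM, the apolipoprotein share was 6.47% ± 0.706 and the mitochondrial share 7.37% ± 3.47.

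Library 3 carried a pancreatic signature. The summed level of 32 acinar genes, which encode digestive enzymes, was 21337 CPM there and 10.5 to 18.8 CPM in the other 8 libraries. Ctrb1, a chymotrypsinogen, was at 4489.6 CPM in library 3 and at 0 to 0.142 CPM elsewhere. Pancreatic lipase (Pnlip) was at 2365 CPM, and at 0 in all others except 0.114 CPM in library 4. The defining enzymes Cpb1 and Reg2 stood at 956 and 899 CPM in library 3 and at 0 in the other 8, which allows up to 0.0922 CPM in a library if a count of 0 permits 3 reads. Of the 32 genes 12 were at 0 in all 7 libraries outside 3 and 9. Islet hormone genes were present too, at a summed 23.6 CPM in library 3, where Ins2 had 12.8 CPM, and at most 0.138 CPM elsewhere. Most of the small acinar sum of the other libraries came from Cela1, an elastase gene with 12.3 to 16.5 CPM in the 7 libraries.

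In library 9 the foreign signature was that of striated muscle. The 25 skeletal muscle genes summed to 23215 CPM there and to 22.7 to 35.6 CPM in the other 8. Skeletal actin (Acta1) was at 4565 CPM against at most 0.592, and the giant sarcomere protein titin (Ttn) at 2326 CPM against at most 0.307. The fast myosin heavy chains Myh1 and Myh2 and myoglobin (Mb) were at 2159.6, 1833 and 915 CPM in library 9 and at 0 in the other 8. The heart muscle list summed to 295 CPM in library 9 and 13.7 to 23.7 CPM elsewhere, with the atrial hormone Nppa and the cardiac myosin Myh6 below 1 CPM in every library. Marker lists of kidney and of spleen had no member at a mean of 1 CPM or more.

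**Figure D2:**
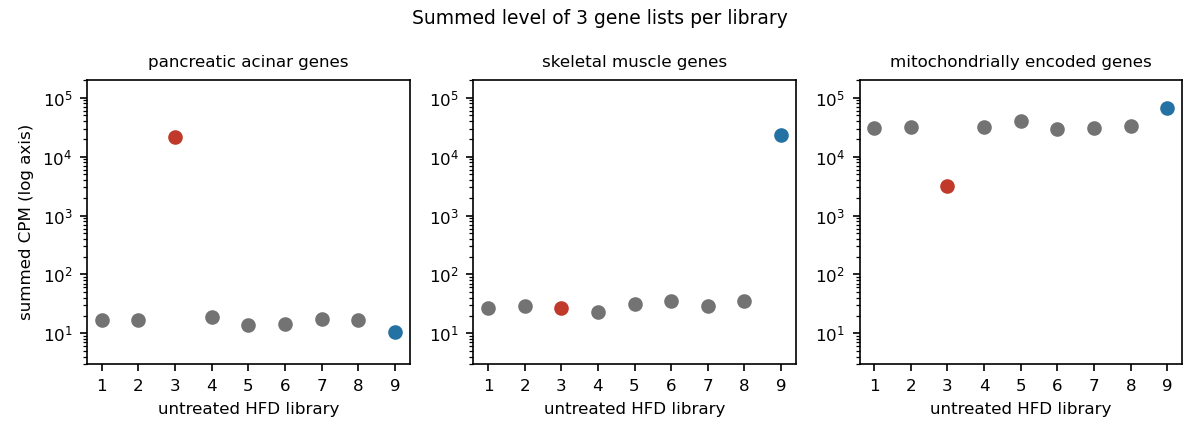
Summed CPM (log axis) of 32 pancreatic acinar, 25 skeletal muscle and 13 mitochondrially encoded genes in each of the 9 libraries. Library 3 is alone at the top of the first panel and at the bottom of the last, and library 9 is alone at the top of the second and last panels.

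Mitochondrially encoded transcripts moved with the same 2 libraries. The 13 protein genes of the mitochondrial genome summed to 3177 CPM in library 3, 65797 CPM in library 9 and 29896 to 39670.4 CPM in the other 7. As a share of raw counts this was 0.297%, 6.55% and 3.26% ± 0.2 (SD, n = 7). mt-Co1 was at 12289.6, 12627, 1630.3, 12499, 16095, 12205, 12514, 13663 and 26554 CPM in libraries 1 to 9. Without libraries 3 and 9 its range was 12205 to 16095 CPM. The part of the pancreatic or muscle RNA in these shares was not tested.

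Departures of libraries 3 and 9 were also counted over all genes, and genes expressed in pancreas or muscle were not taken out of these counts. Of 13846 genes, 523 were at least 2 times higher and 879 at least 2 times lower in library 3 than the mean of the 7 others, and in library 9 the numbers were 629 and 96. For each of the 7 other libraries, against the mean of the remaining 6, 12 to 150 genes were at least 2 times higher and 43 to 534 at least 2 times lower, with the most higher genes in library 1 and the most lower ones in library 5. The 96 lower genes of library 9 were thus within the range of the 7. How many of its 629 higher genes came from muscle was not tested. Hepatocyte genes were among those that set library 3 apart. Cyp2e1, the ethanol-oxidising P450, had 1617 CPM in library 3 and 3279.6 to 4850.0 CPM in the 7. Apoc1, a small apolipoprotein, had 258 against 956 to 1508 CPM, and Selenop 1937 against 3864 to 4558 CPM. In the opposite direction, Hspa5, the main chaperone of the endoplasmic reticulum, had 1466 CPM in library 3 and 594 to 834 CPM in the 7. The source of Hspa5 in library 3, which also held the acinar transcripts, was not tested. The median log2 difference from the 7 was 0.07 in the 2771 genes with the shortest exons and -0.08 in the 2768 with the longest for library 3, and -0.06 and 0.07 for library 9. Among the other 7 libraries the genes with the shortest exons lay between -0.05 (library 7) and 0.09 (library 5).

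Over all 9 libraries, 791 of 13846 genes (5.71%) had a coefficient of variation (CV, the SD as a percent of the mean CPM) of at least 50%. This share is the background for the counts that follow. Without libraries 3 and 9 it was 308 genes, 2.22%, and 268 genes were above the threshold both ways. Library 9 was the highest library in 430 of the 791 genes and library 3 in 149, and without library 9 alone the count was 466. The median CV was 16.9% with all libraries and 10.97% with 7. The common biological coefficient of variation of edgeR, the spread beyond counting noise, was 0.27 and fell to 0.16 without libraries 3 and 9. The 304 genes of at least 1 CPM that failed the filter on low counts, 210 of them highest in library 9 and 49 in library 3, are outside these counts.

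The 15 genes with the largest SD of log2 CPM over 9 libraries (mean of at least 10 CPM) were each highest in library 9, except Ctrl, which was highest in library 3. They included the muscle calcium channel Ryr1, the myosin light chain Mylpf, nebulin (Neb), muscle glycogen phosphorylase (Pygm), tropomyosin 2 (Tpm2) and myomesin (Myom1). Ctrl, a chymotrypsin-like protease gene, was at 338 CPM in library 3 and at most 0.911 CPM elsewhere. H19, an imprinted long non-coding RNA, was at 615 CPM in library 9 and at 0.655 to 3.54 CPM in the other 8. Pdk4, a kinase that blocks glucose oxidation, showed how 1 library can set a value in a liver list: it was at 398 CPM in library 9 and between 9.13 and 17.99 CPM in the others. Lipoprotein lipase (Lpl) was at 1036 CPM in library 9 and 173 to 299.8 CPM in the rest. Both are known to be expressed in muscle, and their source in library 9 was not tested.

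**Figure D3:**
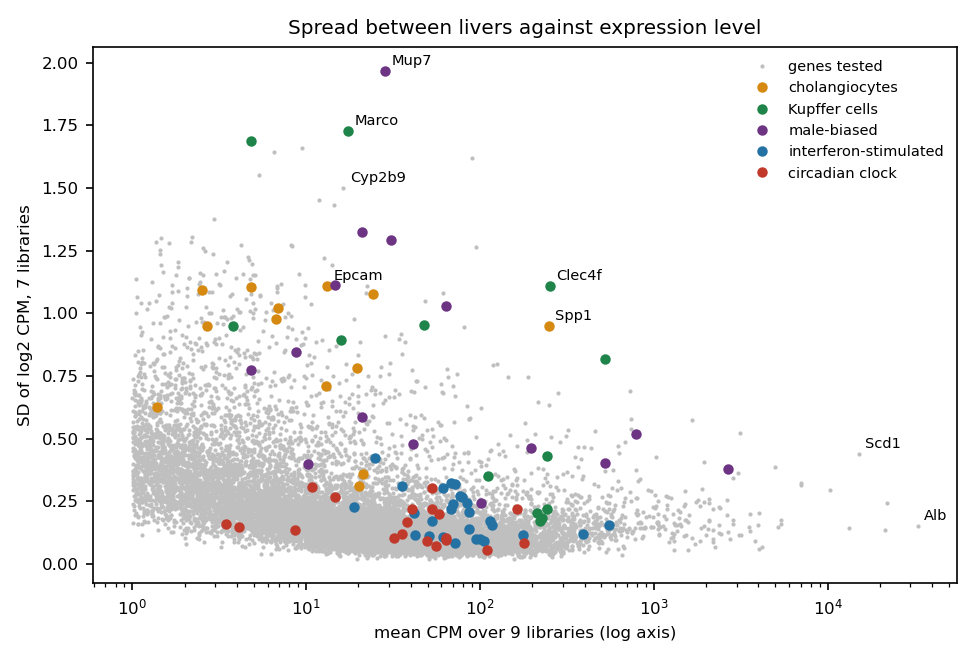
SD of log2 CPM over the 7 libraries without 3 and 9, against the mean CPM over 9 (log axis), for 13846 genes, with 5 gene lists in colour. Many cholangiocyte, Kupffer cell and male-biased genes lie above the grey cloud, and interferon-stimulated and circadian clock genes lie within it.

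Among the 7 remaining libraries, the genes of largest spread included sex-biased hepatocyte genes, Kupffer cell genes and genes of bile duct cells, beside others. Of the 25 genes with the largest SD of log2 CPM there (mean of at least 10 CPM), 5 were major urinary protein genes (Mup7, Mup17, Mup15, Mup19 and Mup11), 3 were Kupffer cell genes (Marco, Clec4f and Vsig4) and 3 belonged to the cholangiocyte list (Epcam, Cd24a and Spp1). The first principal component of log2 CPM over these libraries held 48.0% of the variance and had libraries 1, 6 and 7 at one end and libraries 5, 8 and 4 at the other. The second held 19.1%, with library 8 at one end and libraries 1 and 5 at the other.

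Bile duct genes were high in libraries 1, 6 and 7. Of 13 tested members of the cholangiocyte list, 10 had a CV of at least 50% over 9 libraries and 9 over 7, against the 5.71% and 2.22% of all genes. The median Pearson r between members was 0.86 over 9 libraries and 0.96 over 7, the latter against -0.0005 between genes at large (a description, since all members share their libraries). Epcam (chromosome 17, 87635979 to 87651129), an adhesion molecule of biliary epithelium, was at 25.9, 9.63, 10.02, 7.17, 5.07, 25.1, 23.8, 4.57 and 7.50 CPM in libraries 1 to 9. Libraries 1, 6 and 7 were at 23.8 CPM or more, and the other 6 at 10.02 CPM or less. Krt19, a keratin of the same cells, was at 12.5, 3.81, 5.96, 3.96, 2.46, 12.4, 10.4, 2.82 and 7.89 CPM, with the same 3 libraries above the rest. Spp1 (chromosome 5, 104435118 to 104441050), which encodes osteopontin, a matrix phosphoprotein made by bile duct cells and by macrophages, was the most abundant of the list at 447, 208, 121, 145, 104, 477, 442, 126 and 177 CPM. Lamc3, a laminin chain, and Cdh1, the epithelial cadherin, were highest in the same 3 libraries, Lamc3 at 39.5, 13.9, 11.3, 9.16, 5.16, 49.7, 43.5, 8.33 and 11.6 CPM and Cdh1 at 116, 55.3, 37.4, 44.7, 37.7, 112, 103, 37.6 and 47.6 CPM. Cdh1 is in the periportal hepatocyte list, as the 1 of 11 tested members above the threshold. The mean log2 CPM of that list relative to the 7 libraries was 0.14, 0.03 and 0.06 in libraries 1, 6 and 7 and highest in library 5, at 0.34. The lowest values of Epcam, Spp1 and Lamc3 among the 7 were in libraries 5 and 8. Tff2, a trefoil peptide in the list, did not pass the filter on low counts and is not among the 13. It was at 31.99 CPM in library 3 and at 0.0297 to 0.926 CPM elsewhere. Its CV was 266% over 9 libraries and, at these low levels, 64.2% over 7. Onecut1, a factor that hepatocytes express as well, had a CV of 21.9% over the 7 libraries and stayed under the threshold.

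Genes of stellate cells and matrix were higher in libraries 1, 6 and 7 than in libraries 5 and 8, with a smaller spread, and libraries 3 and 9 departed from this in different members. In all, 3 of 26 tested members (Col1a1, Acta2 and Des) had a CV of at least 50% over 9 libraries and 1 over 7, Acta2, and the median r between members was 0.45 over 9 and 0.85 over 7. The summed level of the list was 3886 CPM in library 3, 3676 CPM in library 9 (of which 730.1 CPM were Des, desmin, a muscle filament protein as well), 3048, 3294 and 3291 CPM in libraries 1, 6 and 7, and 1615 and 2021 CPM in libraries 5 and 8. Col1a1, the main chain of type I collagen, was at 299, 281, 786, 245, 138, 356, 358, 165 and 278 CPM in libraries 1 to 9, highest in library 3, which is also the pancreas-bearing one. The metalloproteinase Mmp2 was at 67.4, 39.7, 21.6, 32.5, 17.5, 61.6, 54.96, 20.1 and 48.2 CPM. Mmp2 was high in libraries 1, 6 and 7 but not in library 3. As the mean log2 CPM of the list relative to the 7 libraries, library 3 was at 0.02 and library 9 highest at 0.53. Lrat, the enzyme that stores retinoids in quiescent stellate cells, was at 17.4, 34.4, 27.4, 32.7, 27.4, 32.96, 42.3, 44.1 and 34.8 CPM and had its lowest value in library 1, where Col1a1 was above the median of the 7.

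Kupffer cell genes were low in libraries 1 and 6. Of 13 tested members 4 were above the CV threshold over 9 libraries and 5 over 7, and the median r between members was 0.82 over 9 and 0.92 over 7. Clec4f (chromosome 6, 83644542 to 83656187), a lectin of resident Kupffer cells, was at 39.8, 278, 508, 235, 278, 103, 199, 368 and 269 CPM in libraries 1 to 9. Its value in library 1 was less than that of any other library and the highest was in library 3. Marco, a scavenger receptor, was at 1.14, 15.5, 55.9, 9.88, 21.98, 2.22, 8.10, 31.7 and 10.5 CPM, and the phosphatidylserine receptor Timd4 at 0.299, 5.05, 7.80, 2.85, 5.29, 0.899, 3.04, 11.6 and 6.66 CPM. Library 3 was highest for Marco and library 8 for Timd4, and library 1 was lowest for both. Vsig4, a complement receptor, was at 10.6, 64.03, 27.6, 49.4, 57.2, 30.6, 45.7, 75.01 and 69.7 CPM, with library 3 among the lower values. The haemoglobin scavenger receptor Cd163 did not pass the filter on low counts, with 0.0598 CPM in library 1 and 20.6 CPM in library 9.

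Other members of the list stayed under the threshold. C1qa, a complement component made by macrophages, had 186 to 261 CPM in the 7 libraries, a CV of 12.04%. The growth factor receptor Csf1r had 185 to 279 CPM and a CV of 14.6%. Library 1 was the lowest for both, at 186 and 185 CPM. In the list of monocyte-derived and lipid-associated macrophages, 2 of 20 members were above the threshold over 9 libraries (Lpl and Spp1) and 1 over 7 (Spp1). Gpnmb and Trem2, markers of lipid-associated macrophages, had 62.6 to 133 and 22.6 to 44.2 CPM. Among the 7, library 2 was highest for both, library 1 lowest for Gpnmb and library 8 lowest for Trem2. Over all 9, Trem2 was highest in library 3, at 59.7 CPM. Neutrophil, T and NK cell lists had 0 members above the threshold of 5 and 16 tested, at low levels: S100a9 was at 3.46 to 5.46 CPM and Cd8a at 3.75 to 7.66 CPM over 9 libraries.

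**Figure D4:**
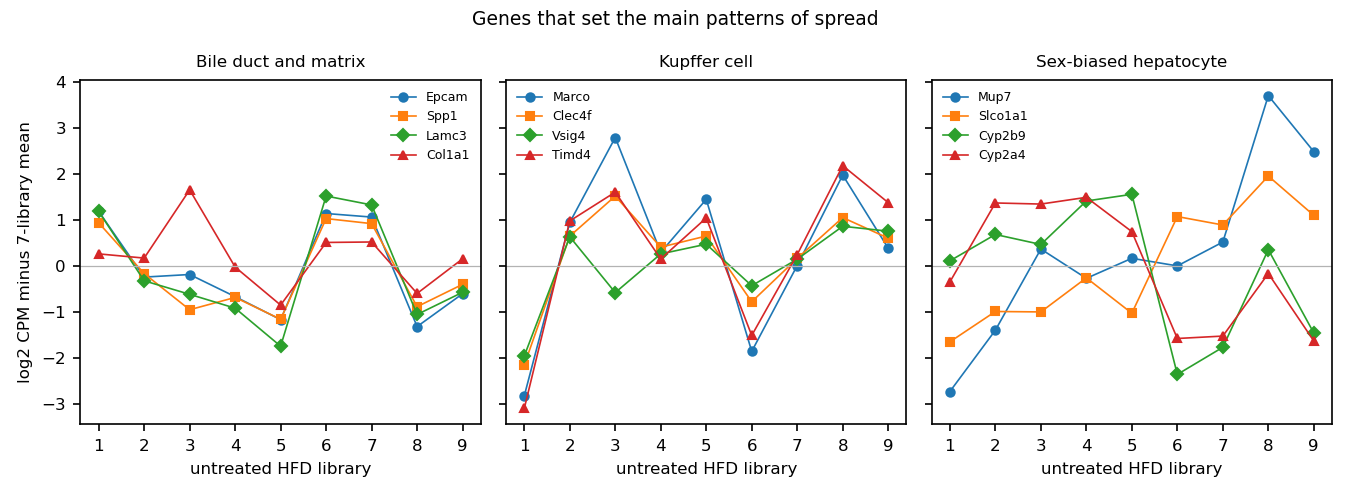
Log2 CPM minus the mean over the 7 libraries without 3 and 9, for 4 genes in each of 3 panels; lines join the points of 1 gene for legibility only. Epcam, Spp1 and Lamc3 are high in libraries 1, 6 and 7, the Kupffer cell genes low in libraries 1 and 6, and Mup7 and Slco1a1 high in library 8 while Cyp2b9 and Cyp2a4 are low in libraries 6, 7 and 9.

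Genes that male mice express more than females in liver spread widely although all animals were male. Of 15 tested male-biased genes, 6 were above the CV threshold over 9 libraries and 6 over 7. Mup7 (chromosome 4, 60066469 to 60070475), a major urinary protein secreted by hepatocytes, was at 1.55, 3.92, 13.3, 8.57, 11.6, 10.3, 14.8, 135 and 57.9 CPM in libraries 1 to 9. Library 8 was highest and library 1 lowest. Mup17 followed with 7.38, 38.3, 29.2, 72.03, 47.7, 84.6, 76.6, 315 and 135 CPM, again with library 8 highest and library 1 lowest. The most abundant member, Mup20, which encodes the male pheromone darcin, had a different order, 1966, 3778, 2989, 2345, 1785, 3222, 2514, 2680.3 and 2700.2 CPM, with library 2 highest and a CV of 23.2%. In the whole family, 11 of 18 tested genes were above the threshold over 9 libraries and 12 over 7, while the family's share of counts stayed between 0.259 and 0.49%. Reads that fit several copies were not counted, so the split between near-identical Mup genes is uncertain. The family's share of counts and the place of Mup20 as its most abundant member leave such reads out as well. How many reads this removed was not tested. A stretch shared by Mup7 and Mup17 is shown as a description. It lies before their RefSeq starts, so it does not say how alike their exons are.
Mup7 and Mup17 (RefSeq, minus strand, chr4:60070506-60070571 and chr4:61595992-61596057): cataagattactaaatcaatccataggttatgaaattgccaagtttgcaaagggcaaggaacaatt
The run of 66 bases is the longest that the 2 promoter windows have in common, and it begins at position -96 relative to the start of Mup7 and at -225 relative to that of Mup17.

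Slco1a1, an organic anion transporter of male liver, was at 4.75, 7.51, 7.46, 12.5, 7.32, 31.4, 27.7, 57.9 and 31.99 CPM in libraries 1 to 9. Libraries 6 to 9 had 27.7 CPM or more and libraries 1 to 5 had 12.5 CPM or less. Cyp4a12a, a male-biased fatty acid hydroxylase, was at 20.05, 48.7, 39.4, 85.2, 22.01, 57.6, 83.01, 137 and 80.4 CPM, and Cyp7b1, an oxysterol hydroxylase, at 23.1, 37.9, 28.2, 41.95, 45.7, 39.1, 37.7, 71.1 and 44.1 CPM. Both were highest in library 8 and lowest in library 1. Cyp2d9, a steroid hydroxylase, kept to a CV of 27.7% at 358 to 870.0 CPM, also between libraries 1 and 8. The female-biased genes of largest spread had another order. Cyp2a4 (chromosome 7, 26307169 to 26315088), a steroid hydroxylase, was at 54.2, 179, 176, 194, 116, 23.1, 23.98, 61.6 and 22.3 CPM, and the P450 Cyp2b9 at 13.5, 20.1, 17.3, 33.2, 36.8, 2.43, 3.66, 15.96 and 4.54 CPM. Libraries 6, 7 and 9 were the lowest 3 for both, and library 4 or 5 was the highest. Fmo2, a flavin monooxygenase of the same list, had a different order, with 59.6, 32.8, 14.4, 24.7, 17.00, 62.3, 48.8, 32.00 and 71.7 CPM and libraries 9, 6 and 1 highest. The median r between members of the list was 0.14 over 9 libraries and -0.21 over 7. Of 7 tested female-biased genes 4 were above the threshold over 9 libraries and 3 over 7.

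The promoters of Cyp2a4 and Spp1 are shown because they head the female-biased and the cholangiocyte list by level and, of the 17 windows found for the 25 most variable genes, are those that hold 2 of the 3 motifs searched.
Cyp2a4 promoter (RefSeq, GRCm38.p6, chr7:26306942-26307191, plus strand): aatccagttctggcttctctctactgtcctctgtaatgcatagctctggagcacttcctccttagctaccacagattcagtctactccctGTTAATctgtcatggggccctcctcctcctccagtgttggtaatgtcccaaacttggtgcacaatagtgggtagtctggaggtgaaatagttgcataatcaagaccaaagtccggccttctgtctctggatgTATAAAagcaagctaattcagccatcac
Spp1 promoter (RefSeq, GRCm38.p6, chr5:104434861-104435110, plus strand): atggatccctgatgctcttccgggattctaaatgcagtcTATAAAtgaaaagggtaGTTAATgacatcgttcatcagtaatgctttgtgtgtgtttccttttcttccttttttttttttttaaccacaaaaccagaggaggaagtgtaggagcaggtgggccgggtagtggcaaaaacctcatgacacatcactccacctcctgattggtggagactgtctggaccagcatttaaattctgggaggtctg
Capitals mark GTTAAT and, in both promoters, the letters of a TATA box. Positions are relative to the RefSeq start, and in Cyp2a4 the annotation of the counts starts the gene upstream of it, inside the stretch shown. TATAAA begins at position -28 in Cyp2a4 and at -211 in Spp1. TATAAA was in 4 of the 17 windows and in 13.6% of all 32851, GTTAAT in 2 of 17 and 7.1%, and the motif TTCNNNGAA in 0 of 17 and 8.3%.

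De novo lipogenesis genes kept a moderate spread. None of 20 tested members reached a CV of 50%, with 9 libraries or with 7, and the median SD of log2 CPM over 7 libraries was 0.27 against 0.16 for all genes tested. The list was lowest in library 3, at a sum of 13973 CPM, and highest in libraries 7 and 8, at 31679 and 33866 CPM. Fasn, fatty acid synthase, was at 1854, 1785, 1382, 1762, 1400.3, 2259.7, 2301, 2577 and 1638 CPM in libraries 1 to 9, and Thrsp, a lipogenic factor, at 643, 513, 563, 490.0, 522, 985, 958, 1223 and 738 CPM. Libraries 6, 7 and 8 were the highest 3 for both genes. Srebf1, which encodes the transcription factor SREBP-1, ranged from 522 to 795 CPM and had its highest value in library 1. Pnpla3, the lipid droplet protein known from human steatosis genetics, was at 5.29, 4.06, 1.12, 3.64, 2.86, 7.66, 6.84, 6.08 and 6.24 CPM, lowest in library 3.

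Among lipid droplet and uptake genes, Plin2, the coat protein of hepatocyte lipid droplets, had 676 to 896 CPM over 9 libraries, a CV of 10.4%, and Fabp1, the fatty acid binding protein of liver, 858 to 1820.4 CPM, a CV of 18.4%, beside the median of 16.9% for all genes. Cidec, a fat-storage protein that enlarges droplets, was at 138, 138, 70.6, 139, 93.1, 156, 180.0, 191 and 112 CPM, lowest in library 3 and highest in library 8. Of 21 tested members, 3 were above the threshold over 9 libraries (Lpl, Fabp4 and Cidea) and 1 over 7 (Cidea, at 3.01 to 12.5 CPM). In fatty acid oxidation the figures were 1 of 20 (Pdk4) and 0. Cyp4a14, an omega-hydroxylase induced by PPAR-alpha, was at 65.1, 86.4, 77.5, 97.2, 80.8, 34.1, 33.6, 31.5 and 29.8 CPM, with libraries 1 to 5 above libraries 6 to 9.

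Acute phase genes, which hepatocytes induce in inflammation, spread more than most. Their median SD of log2 CPM over 7 libraries was 0.42, against 0.19 for other plasma proteins. Saa1, a serum amyloid A, was at 468, 529, 1512, 511, 1123, 479, 439, 1055 and 559 CPM in libraries 1 to 9. Libraries 3, 5 and 8 were above 1000 CPM and the others at 559 CPM or less. Its near-identical neighbour Saa2 was at 246, 282, 246, 232, 596, 278, 233, 419 and 270.4 CPM, with library 5 highest and library 3 among the lower values. The iron-binding lipocalin Lcn2 was at 757, 912, 713, 1033, 1370.1, 405, 387, 579 and 403 CPM, with libraries 6, 7 and 9 lowest. Over 9 libraries 2 of 19 acute phase genes (Saa1 and Saa3) and over 7 libraries 0 were above the CV threshold. Reads shared by Saa1 and Saa2 cannot be assigned, so the split between them is uncertain.

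In several programmes no gene reached the threshold. Of 27 interferon-stimulated genes, 19 circadian clock genes, 19 hepatocyte transcription factors, 20 plasma protein genes, 22 genes of cholesterol synthesis and 20 cell cycle genes, 0 were above the CV threshold with 9 or with 7 libraries. The shares over all genes were 5.71% and 2.22%, at which lists of this size would hold few such genes or none. The median SD of log2 CPM over 7 libraries was 0.17 for interferon-stimulated, 0.15 for clock and 0.16 for hepatocyte factor genes, next to 0.16 for all genes. It was higher for plasma protein genes (0.19), cholesterol synthesis genes (0.19) and cell cycle genes (0.22). Irf7, a transcription factor of the interferon response, was at 294 to 449 CPM over 9 libraries. Dbp, a clock output factor whose transcript swings widely over the day, ranged over 55.9 to 66.4 CPM in the 7 libraries, and Hnf4a, a master regulator of hepatocyte genes, over 525 to 699 CPM. Endothelial genes had 1 of 15 members above the threshold over 9 libraries, Flt1, and 0 over 7. Flt1 was at 70.7 CPM in library 9 and 21.8 to 26.9 CPM in the 7. Stab1, a scavenger receptor of sinusoids, was at 222 CPM in library 3 and 142 to 166 CPM in the other libraries.

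The 10 steadiest genes of at least 50 CPM over the 7 libraries were Eif5, Tax1bp1, 9530068E07Rik, Ap2b1, G3bp1, Tmem184b, Fbxw11, Kctd20, Pdpk1 and Dennd4c. Eif5, a translation initiation factor, was at 247 to 260.4 CPM in the 7 and at 330.0 CPM in library 3. Ap2b1, a subunit of the endocytic adaptor AP-2, was at 103 to 111 CPM over all 9. Eif5 in library 3 was thus above its range in the 7, whereas Ap2b1 differed by little in any library.

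**Figure D5:**
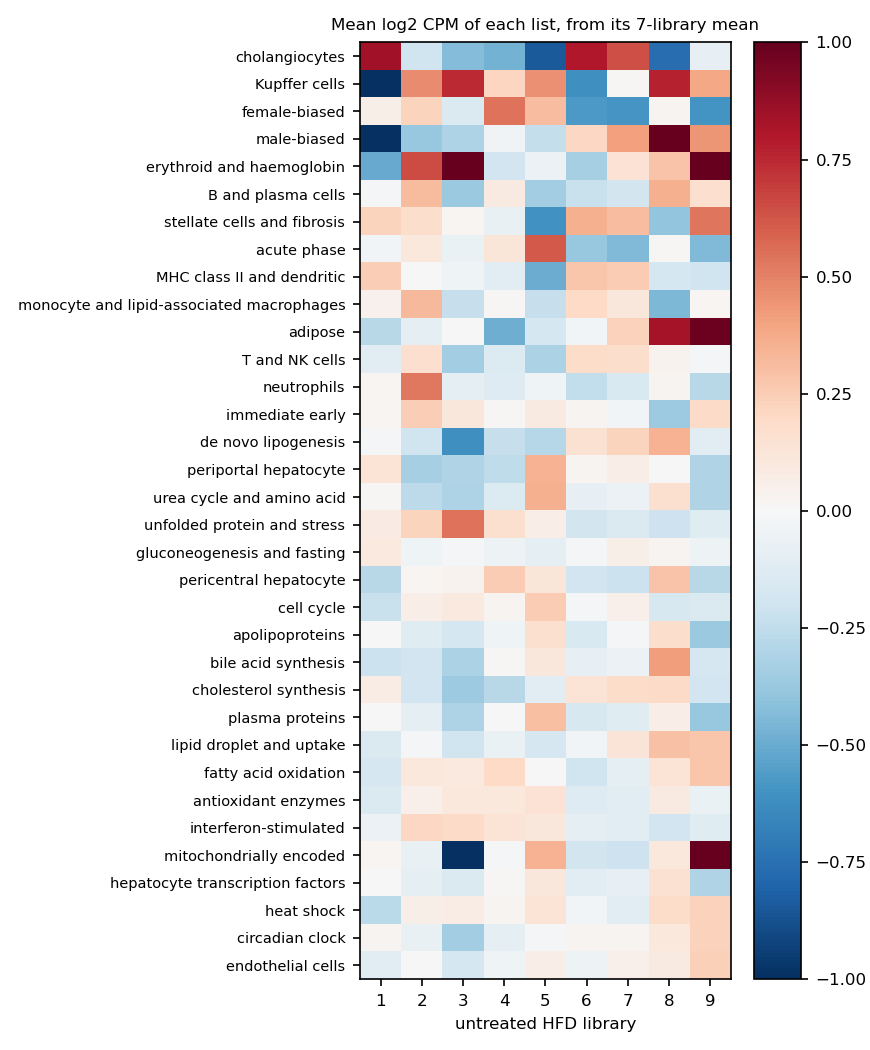
Mean log2 CPM of each gene list in each library, minus the mean over the 7 libraries without 3 and 9; colours are clipped at 1 in either direction. The cholangiocyte row is high in libraries 1, 6 and 7, the Kupffer cell row low in libraries 1 and 6, the male-biased row low in library 1 and high in library 8, and the mitochondrial row low in library 3 and high in library 9.

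Traces of adipose transcripts also differed between libraries. Adipoq, the adipocyte hormone adiponectin, was at 0, 1.38, 3.65, 0, 0, 0, 0, 1.54 and 2.06 CPM in libraries 1 to 9 and did not pass the filter on low counts. Cfd, adipsin, was at 2.39, 2.62, 2.81, 1.14, 1.91, 2.27, 5.03, 15.5 and 10.3 CPM. Library 3 was highest for Adipoq and library 8 for Cfd, and library 9 was in second place for both. Fabp4, a fatty acid binding protein of adipocytes, macrophages and endothelium, was highest in library 9 at 76.8 CPM and at 15.9 to 30.7 CPM in the 7. The part of adipose RNA in the high values of library 8 was not tested.

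Co-variation was tested for 51 of 54 listed pairs of genes over the 9 libraries (Saa1 with Mt2, Hsd3b5 with Elovl3 and Cyp2b9 with Hsd3b5 had a gene that was not tested), with an exact two-sided permutation test of Pearson's r and Benjamini-Hochberg adjustment over the 51. The pairs were listed with earlier results of these data known, so their p-values describe these libraries and are not an independent test. The adjusted p was under 0.05 for 14 pairs, all with positive r, and for 7 pairs without library 7 and 8 pairs without library 8. The share of all pairs of genes that would be called in this way was not computed, so this count has no background. Many genes moved with the same libraries: the first 3 principal components over the 9 libraries held 37.1, 24.7 and 17.5% of the variance. For 5 of the 51 pairs the libraries fell into separate clusters, 4 of them pairs of Saa1 and 1 of them Cyp4a14 with Cyp4a10, and no r is given for them. The closest pair was Col1a1 with Col3a1, the chains of fibrillar collagens I and III, with r = 0.99 (exact permutation p = 1.1e-05, adjusted p = 0.000562, rho = 0.97, exact p = 0.000165, n = 9). It was 0.98 without libraries 3 and 5, the farthest from the median. Clec4f with Timd4 had r = 0.97 (exact permutation p = 0.000292, adjusted p = 0.00745, rho = 0.92, exact p = 0.00131) and 0.79 without libraries 1 and 6. Krt19 with Epcam had r = 0.91 (exact permutation p = 0.00136, adjusted p = 0.0172, rho = 0.90, exact p = 0.00203) and 0.84 without libraries 5 and 8. Its largest gap between libraries was 0.5 of the range, just under the 0.5 at which libraries were taken as separate clusters, and libraries 1, 6 and 7 form its upper end. Cyp2b9 with Cyp2a4 had r = 0.90 (exact permutation p = 0.00194, adjusted p = 0.0172, rho = 0.85, exact p = 0.00607) and 0.84 without libraries 6 and 7. These 4 pairs kept an adjusted p under 0.05 on leaving out any 1 library, and also without libraries 3 and 9.

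Among the lipogenic pairs Scd1 with Fasn had r = 0.86 (exact permutation p = 0.00333, adjusted p = 0.0188, rho = 0.87, exact p = 0.00451, n = 9). Without libraries 3 and 8 it was 0.74 with an exact permutation p of 0.0609, on 7 points instead of 9. Fasn with the citrate lyase Acly, Scd1 with the elongase Elovl6, Scd1 with Cidec, and Fasn with Pnpla3 had r of 0.85, 0.88, 0.84 and 0.77, with exact permutation adjusted p of 0.0188, 0.0172, 0.0204 and 0.0332. Their rho was 0.93, 0.87, 0.73 and 0.73, with exact permutation p of 0.00075, 0.00451, 0.0311 and 0.0311. Each of these 5 calls was lost when library 3 was left out. Scd1 with Fasn, Fasn with Acly and Scd1 with Cidec were also lost without library 7 or 8, and Fasn with Pnpla3 in 6 of 9 refits. Of the 5, Fasn with Pnpla3 alone had an adjusted p under 0.05 without libraries 3 and 9 together. Its rho over 9 libraries had an exact permutation adjusted p of 0.0992. Srebf1 with Fasn had r = -0.09 (exact permutation p = 0.828, adjusted p = 0.916, rho = -0.10, exact p = 0.81).

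The other 5 called pairs were H2-Ab1 with Cd74 of antigen presentation, the pericentral genes Glul with Oat, the interferon-induced Ifit1 with Ifit3, Trem2 with Gpnmb, and Mup7 with Cyp7b1. Their r was 0.88, 0.85, 0.82, 0.81 and 0.81, with exact permutation adjusted p of 0.0172, 0.0172, 0.0205, 0.0332 and 0.045. Their rho was 0.87, 0.85, 0.82, 0.87 and 0.53, with exact permutation p of 0.00451, 0.00607, 0.0108, 0.00451 and 0.147. Mup7 with Cyp7b1 fell to r = 0.20 without libraries 1 and 8, so that the relation rested on those libraries, and its call was lost in 8 of the 9 refits without 1 library. Trem2 with Gpnmb was lost in 7 of 9, Ifit1 with Ifit3 without library 3, 6, 7 or 8, Glul with Oat without library 1 or 3, and H2-Ab1 with Cd74 without library 5 (exact permutation adjusted p = 0.0804). Leaving out the 2 farthest libraries left an exact permutation p above 0.05 for 6 of the 14 pairs, namely Scd1 with Fasn, Elovl6 and Cidec, Trem2 with Gpnmb, Ifit1 with Ifit3 and Mup7 with Cyp7b1. Their r on the remaining 7 libraries was 0.74, 0.66, 0.58, 0.73, 0.72 and 0.20 in this order, and fewer points alone raise the p. Of the 14 called pairs, 7 were also called without libraries 3 and 9 together, where 14 pairs were called in all.

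By a fixed rule, the 3 genes with the highest r to each of the 8 most variable genes were sought over the 7 libraries among 9309 genes, as a description. Nearest to Marco were Hmox1 (r = 0.99), the haem oxygenase of macrophages that clear red cells, the iron exporter Slc40a1 (0.99) and the lectin receptor Clec1b (0.99). Lamc3 was nearest to Apobec3, Spp1 and Gatad2b, each at r = 1.00 after rounding. Mup17 was nearest to Mup15 (0.98) and Mup7 to Ptpmt1 (0.99), Arl6ip1 (0.99) and Cyp2d9 (0.98). With 7 points per gene and so many genes searched, values near 1 are readily found.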

How the data were processed

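The deposited table holds raw read counts per gene for all samples. Per the file headers, the authors counted reads over GENCODE vM25 exons by gene with featureCounts 2.1.1, which was run for paired reads, given no strand setting, and left multi-mapping reads uncounted. Per the submitters' processing notes, fastp 1.3.3, HISAT2 2.2.1 and the mm10 build were used, and Subread 2.0.2 is also named. RNA was TRIzol-extracted per the labels' protocols. Antisense and overlapping genes cannot be separated without strand. Of 55401 genes, 55141 had a symbol. Another 1 per-sample column matched no sample and was not used.

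From these counts, CPM was computed on TMM-scaled library sizes with edgeR 4.0.16 in R 4.3.3, log2 CPM with a prior count of 2, and TPM from the deposited exon lengths. Genes were kept by filterByExpr (minimum count 10), which left 14533, and 13846 of these had a mean of at least 1 CPM. A gene was called variable at a CV of at least 50%. The dispersion fit used an intercept only. Depth was 32944988 to 35914084 counts per library, and each library is 1 sample. Pairs were tested by exact permutation over 362880 pairings. Sequences came from RefSeq tables on GRCm38.p6. The programs were tested on simulated data. The named genes were the 20 highest by CPM and 10 by TPM, the 15 of largest SD of log2 CPM over 9 libraries, the 25 of largest and 10 of smallest SD without libraries 3 and 9, in each list the 4 of largest SD and 2 of highest CPM, the genes of the pairs, and the 3 genes most like each of the 8 most variable. Results on some items are not reported here. Other genes named were chosen after their values were seen. The members, lists and pairs were chosen with earlier results of these data known. Alternatives were other scalings, filters, prior counts and rank correlation, and leaving out libraries. The closest libraries, 6 and 7, differed by more than counting noise.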

Additional observations from a re-analysis of the deposited data

Results flagged for a closer look

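With 9 libraries, a value was singled out where the gap between the highest or lowest library and its nearest neighbour took a larger part of the whole range than Dixon's 95% critical value. This was checked for 179 values reported above or behind the gene lists, and 52 met it. Chance alone singles out about 5% of groups taken at random, which is no yardstick here, since many of the values were named for their spread or for another tissue and values of 1 library are not independent. Library 3 was the one apart in 28 of the 52, library 9 in 16 and library 8 in 8. No explanation of any of them was tested.

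Library 3 was above the others in the summed CPM of the acinar list (4489.6 for Ctrb1, 2365 for Pnlip and 21337 for the list), of the islet list (23.6, with Ins2 at 12.8), of the list of unfolded protein and stress genes (3577, with Hspa5 at 1466) and of the kidney list (2.25). Ctrl at 338 CPM and Tff2 at 31.99 CPM stood apart there as well. So did the matrix genes Col1a1 (786 CPM) and Col3a1 (888 CPM) and the sinusoidal gene Stab1 (222 CPM). Hepatocyte genes above the others were Trf (39002 CPM) and Apoe (36333 CPM). The same held for Eef1a1 (5330.3 CPM), Arl6ip1 (408 CPM), Eif5 (330.0 CPM), Kctd20 (70.4 CPM) and Dbp (77.7 CPM). Below the others in library 3 were Cyp2e1 (1617 CPM), Selenop (1937 CPM), Apoc1 (258 CPM), Tax1bp1 (152 CPM), 9530068E07Rik (127 CPM), Tmem184b (56.99 CPM), Fbxw11 (48.7 CPM) and Pdpk1 (44.9 CPM). Of these, Eif5, Kctd20, Tax1bp1, 9530068E07Rik, Tmem184b, Fbxw11 and Pdpk1 had been named for their small spread without libraries 3 and 9, which favours such a gap.

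Library 9 was above the others in the summed CPM of the skeletal muscle list (23215) and the heart muscle list (295), and in the share of counts of mitochondrial ribosomal and transfer RNA, 0.119%. The muscle genes were Acta1 (4565 CPM), Ttn (2326 CPM), Tpm2 (1122 CPM), Neb (955 CPM), Ryr1 (777 CPM), Pygm (499 CPM), Mylpf (447 CPM) and Myom1 (285 CPM). H19 (615 CPM), Pdk4 (398 CPM), Fabp4 (76.8 CPM), Acta2 (23.99 CPM) and Dennd4c (59.9 CPM) were apart as well. Library 8 was above the others in the Mup genes Mup7 (135 CPM), Mup11 (46.95 CPM), Mup15 (42.5 CPM), Mup17 (315 CPM) and Mup19 (51.05 CPM). It was also above them in Cyp2d9 (870.0 CPM), Cyp7b1 (71.1 CPM) and the elongase gene Elovl3 (40.01 CPM), which are in the male-biased list, as is Mup7.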

How the results depend on the processing

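The count of genes with a CV of at least 50%, 791, was 306 when libraries 3 and 9 were left out and scaling was refitted, 246 at a minimum mean of 10 CPM, and 323 when a gene was counted if its second highest level was at least 3 times its second lowest. On leaving out 1 library it ranged from 466, without library 9, to 866. The count was 792 with RLE scaling, 769 with upper-quartile scaling and 1071 with no filter on low counts. The biological coefficient of variation, 0.268, was 0.491 with no filter and 0.164 without libraries 3 and 9, and ranged from 0.216 to 0.279 on leaving out 1 library. The 14 called pairs became 7 without library 7 and 8 without library 8, with a highest count of 14. The 100 most abundant genes held 32.6% of counts, 31.0% with mitochondrially encoded genes taken out and 44.4% by TPM, and 32.3 to 32.8% on leaving out 1 library. The causes were not tested. Without libraries 3 and 9, the CV of 96 named genes moved by more than 1.5 times. With all libraries, 14 of 16 family shares by TPM differed from the share of counts by at least its SD over libraries. No called pair changed sign, whereas uncalled pairs did without libraries 3 and 9, such as Hspa5 with Dnajb9 (r from -0.46 to 0.59), Mki67 with Top2a (-0.27 to 0.44) and Cyp2e1 with Cyp1a2 (-0.11 to 0.57). Depth limits only genes near 0, where 3 reads are 0.0793 to 0.0936 CPM. No paired analysis was possible because only 1 group of animals was described. Genes at a CV near 50%, and the split of reads within the Mup and Saa families, are uncertain.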

Other observations

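The largest gap between neighbouring libraries was located in each gene across the 9 untreated livers. Such gaps were looked for after the values had been seen, they carry no test, and no label gives a cage, a date or a batch for the libraries. Of 4770 genes whose highest and lowest log2 CPM differed by at least 1, the largest gap set a single library apart in 3621, most often library 3 (1995 genes) or library 9 (790 genes). In the other 1149 genes at least 2 libraries lay on each side. The most frequent such division, with 128 genes, had libraries 1, 6 and 7 on one side, and 125 of these genes were higher there.

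A division of libraries 1 to 5 from libraries 6 to 9 was seen in 27 genes, 19 of them higher in libraries 6 to 9. It was picked from the divisions and was not one of the most frequent. More genes set apart libraries 3 and 9 (72 genes), 3 and 5 (69) or 5 and 8 (65). Nearly as many, 26, set apart libraries 1 and 6. In most of the 27 the gap was less than 0.5 of the range of log2 CPM, and the 4 genes given here are those in which it was more. Zbtb16, a transcription factor gene known to respond to glucocorticoids, was at 9.62, 7.78, 7.58, 10.1, 8.21, 35.5, 33.4, 38.8 and 47.4 CPM in libraries 1 to 9. Lpin1, a phosphatidate phosphatase of triglyceride synthesis, was at 188, 176, 136, 178, 165, 403, 412, 459 and 402 CPM. Klf10, a zinc finger factor, was at 16.2, 15.3, 14.98, 16.4, 14.3, 47.3, 38.98, 36.5 and 40.03 CPM. The opposite side was held by Cyp4a14, with 65.1, 86.4, 77.5, 97.2, 80.8, 34.1, 33.6, 31.5 and 29.8 CPM. In each of these 4 genes the levels of the libraries on each side did not overlap, as the way they were found requires. What the libraries on a side have in common was not tested.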
